A study of Mus musculus with 4 samples.

Results

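The genes described here are the core splicing factors of the Srsf, Hnrnp, Snrp, Sf3 and U2af families, read by ribosome profiling in mouse embryonic stem cells (ESCs) and embryoid bodies (EBs) with and without the m6A methyltransferase gene Mettl3. They were taken by name. Every RefSeq coding sequence whose gene symbol begins with Srsf, Hnrnp, Snrp, Sf3a, Sf3b or U2af was kept, 1 pseudogene was left out, and the entries of a symbol were summed. This gave 55 genes from 94 RefSeq entries, of 20716 genes in all. There were 11 Srsf, 20 Hnrnp, 12 Snrp, 9 Sf3 and 3 U2af genes. The rule uses symbols and no measured value, but the families were picked with earlier results of these data known. Of the 55, 39 had reads, 37 reached a mean of at least 25 normalised reads over the 4 libraries, 2 with reads stayed below that, and 16 had 0 reads in all 4 libraries.

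An intron is removed by the spliceosome, which is built from small nuclear ribonucleoproteins (snRNPs). U1 snRNP binds the 5′ splice site, the U2AF dimer binds the 3′ splice site, and U2 snRNP, with its SF3a and SF3b subcomplexes, binds the branch site. SR proteins, the Srsf genes, bind exons and help to recruit these factors, while hnRNPs coat the transcript and often keep exons from being used. Several factors also touch m6A biology. Mettl3 carries out the methylation within the m6A writer complex, Hnrnpc and Hnrnpa2b1 have been described as proteins whose binding depends on m6A, and in human cells the nuclear m6A reader YTHDC1 binds SRSF3 and SRSF10. Many SR and hnRNP genes control their own mRNA by alternative splicing and have several annotated transcripts.

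Ribosome footprints, the mRNA stretches that ribosomes protect from RNase I, were sequenced from 4 libraries, 1 for each group, all on a C57BL/6 background. The groups were Mettl3-KO EBs, WT EBs, Mettl3-KO ESCs and WT ESCs. ESCs were kept in serum-free N2B27 medium with LIF and the inhibitors CHIR99021 and PD0325901, and EBs grew in suspension in medium with serum. The labels do not give the day of each EB library, the stretch of Mettl3 that was deleted, or how many clones each genotype stands for. With 1 library per group no difference below has a replicate check, and no p-value was computed between 2 libraries. Each interval is a 95% exact binomial (Clopper-Pearson) interval of the ratio of reads and covers counting error only.

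The reads counted on genes numbered 4075850 in KO EBs, 4234361 in WT EBs, 11455539 in KO ESCs and 8570204 in WT ESCs. The splicing factors held between 1.03% and 1.28% of them. Mettl3 (chr14:52294841-52308741) had a normalised read count of 327 in KO EBs against 429 in WT EBs and of 298 in KO ESCs against 563 in WT ESCs. Since the deleted stretch is not given, this value does not check the genotype labels. The 7 ESC markers, of which Esrrb was near 0 in each library, summed to 18799 normalised reads in KO EBs against 12465 in WT EBs and to 15686 in KO ESCs against 24360 in WT ESCs. The markers of visceral endoderm, 5 genes, summed to 1203 in KO EBs against 41402 in WT EBs, and to 39.5 in KO ESCs against 77.8 in WT ESCs. The 4 collagen genes taken as mesenchyme markers summed to 7001 in KO EBs against 913 in WT EBs, and to 1721 in KO ESCs against 311 in WT ESCs. In every comparison below, in ESCs as in EBs, these sums differ as well, and their part in the differences of the splicing factors was not tested. Footprints do not separate fewer cells of a type from less mRNA or less translation per cell.

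Which splicing factors the table can show depended on how reads were assigned. A library's value is reads divided by 1 factor. The pattern of zeros is that of a count in which each RefSeq entry collects reads over the span between its first and last coding base, introns included, and a read in a stretch shared by several spans on the same strand goes to none of them. All 36 splicing factors with 1 entry had reads, and of the 19 with 2 or more entries only Srsf1, Srsf11 and Hnrnpul1 had any. In other terms, 39 of 39 genes with coding bases outside every other entry's span had reads, against 0 of 16 genes without such bases. Over the whole table, 1343 of 1343 entries whose own exon bases all lie inside another entry's span on the same strand had 0 reads.

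The genes that carried no count were Srsf5, Srsf7 and Srsf10; Hnrnpa1, Hnrnpa2b1, Hnrnpa3, Hnrnpab, Hnrnpc, Hnrnpd, Hnrnpf, Hnrnpm and Hnrnpr; Snrpa, a protein of U1 snRNP, and Snrpn; and U2af1 and U2af2, the subunits of the U2AF dimer. Under that count their 0 is no level, and no difference is given for them. The list includes Hnrnpc and Hnrnpa2b1, both named above for their m6A-dependent binding.

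Srsf1, the SR protein SF2/ASF, shows what such a count rests on. Its full-length entry NM_173374 kept 195 coding bases of its own, at chr11:88049412-88049606 on the plus strand (GRCm38.p6). The shorter entry NM_001078167 has 54 own bases at chr11:88049216-88049269, which lie inside the span of the other entry, and it had 0 reads. Both stretches are printed from RefSeq with the codons for serine and arginine in capitals.
Srsf1 NM_173374: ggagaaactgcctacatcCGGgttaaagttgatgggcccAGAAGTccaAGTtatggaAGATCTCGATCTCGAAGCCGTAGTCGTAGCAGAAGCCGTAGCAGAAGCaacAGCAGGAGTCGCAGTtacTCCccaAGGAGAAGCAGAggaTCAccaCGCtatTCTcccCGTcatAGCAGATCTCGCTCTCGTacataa
Srsf1 NM_001078167: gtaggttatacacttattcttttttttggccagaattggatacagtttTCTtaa
Of the 65 own codons of the full-length entry, stop codon included, 40 encode serine or arginine, against 1 of 18 in the shorter one. Under that count, all reads of Srsf1 come from the last stretch of the full-length form, the part that encodes most of its RS domain, and from the intron next to it outside the span of the shorter entry.

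U2af1, the subunit that recognises the AG at the 3′ splice site, has a pair of mutually exclusive exons of 67 bases. Each of its entries NM_001163769 and NM_024187 has 1 of them, at chr17:31652502-31652568 and chr17:31651646-31651712 on the minus strand (GRCm38.p6). They are shown because each could tell the forms apart, with the bases that differ in capitals.
U2af1 NM_001163769: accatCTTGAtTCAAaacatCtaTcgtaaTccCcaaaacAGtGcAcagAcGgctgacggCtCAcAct
U2af1 NM_024187: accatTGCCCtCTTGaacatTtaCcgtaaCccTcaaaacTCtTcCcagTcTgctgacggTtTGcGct
The exons share 44 of 67 bases, or 65.7%. Each exon lies inside the span of the other entry, and both entries had 0 reads in every library, so the choice between these exons is not readable from the table.

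A second limit is sequence that occurs elsewhere in the genome, such as in processed pseudogenes or related genes. Reads without a unique place made up between 48.4% and 55.7% of the reads in the table. Windows of 28 nt from each coding sequence were looked up on both strands of GRCm38.p6, and 22 of the 37 splicing factors had under 10% of their windows copied elsewhere. Of the 9 Snrp genes that passed, only Snrpa1 and Snrpd3 were under 10%. Snrpf, Snrpd2 and Srsf3, on which several differences below turn, are printed from the reference, whole for Snrpf and as the last 300 coding bases for the others. Capitals mark the bases that lie in windows found nowhere else.
Snrpf NM_027246, chr10:93583464-93589541, minus strand: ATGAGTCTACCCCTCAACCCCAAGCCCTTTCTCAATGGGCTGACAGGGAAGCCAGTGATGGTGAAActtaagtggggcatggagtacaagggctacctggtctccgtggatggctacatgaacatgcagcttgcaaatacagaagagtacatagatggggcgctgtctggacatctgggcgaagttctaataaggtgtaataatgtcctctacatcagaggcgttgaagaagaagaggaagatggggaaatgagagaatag
Snrpd2 NM_026943, chr7:19151273-19152650, plus strand: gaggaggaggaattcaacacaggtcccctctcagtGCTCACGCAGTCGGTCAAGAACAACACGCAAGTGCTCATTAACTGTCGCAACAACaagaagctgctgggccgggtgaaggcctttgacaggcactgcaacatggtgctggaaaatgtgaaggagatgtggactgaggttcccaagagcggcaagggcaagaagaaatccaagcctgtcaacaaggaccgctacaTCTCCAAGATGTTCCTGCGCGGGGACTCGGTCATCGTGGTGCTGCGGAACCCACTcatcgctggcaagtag
Srsf3 NM_013663, chr17:29036438-29041411, plus strand: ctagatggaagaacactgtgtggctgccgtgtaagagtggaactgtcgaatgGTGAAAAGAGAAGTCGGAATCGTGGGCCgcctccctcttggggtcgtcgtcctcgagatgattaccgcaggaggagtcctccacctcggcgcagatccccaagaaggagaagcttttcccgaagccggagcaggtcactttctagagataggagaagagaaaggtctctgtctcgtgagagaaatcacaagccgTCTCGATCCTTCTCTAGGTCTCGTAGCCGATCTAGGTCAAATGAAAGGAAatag
Capitals cover 66 of the 261 coding bases of Snrpf, 110 of 357 in Snrpd2 and 78 of 495 in Srsf3, all within what is printed. Few bases of these genes are thus free of copies.

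The level of a gene across libraries is given as the normalised read count. Between genes it is compared per kb of coding sequence, for genes with 1 entry. This length includes copied sequence, so ranks between genes can differ when only windows without a copy elsewhere are counted. Among the SR proteins Srsf2, known as SC35, had the largest mean value, with 2948 in KO EBs, 3087 in WT EBs, 2646 in KO ESCs and 3235 in WT ESCs. Per kb of coding sequence its level was 4426 in KO EBs, 4636 in WT EBs, 3973 in KO ESCs and 4857 in WT ESCs. The highest and lowest value of Srsf2 lay 1.22-fold apart. Hnrnpu, which encodes a large protein that also binds chromatin, had the largest mean of the hnRNPs, with 8414 in KO EBs, 11249 in WT EBs, 8670.0 in KO ESCs and 12574 in WT ESCs. Both KO values were lower than the WT values of the same stage. Per kb, Hnrnpu stood at 3502 in KO EBs, 4681 in WT EBs, 3608 in KO ESCs and 5233 in WT ESCs. Of the Snrp genes Snrpb, which encodes the SmB protein, had the largest mean, with 3002 in KO EBs, 1936 in WT EBs, 1944 in KO ESCs and 2463 in WT ESCs. Its KO EB library was the highest of the 4, while KO ESCs and WT EBs were nearly equal. Per kb Snrpb was not the highest Snrp gene, with a mean of 3356 against 4571 for Snrpd3. Per window without a copy, Snrpf, Snrpd2 and Snrpe had larger means than Snrpd3. Their copied shares were 83.8%, 91.2% and 84.1%, against 1.41% for Snrpd3. By that measure Hnrnpk, with 87.8% copied, also stood above Hnrnpu, and Srsf1, counted on its own windows only, above Srsf2. Of the Sf3 genes Sf3b1, the large subunit that clasps the branch site, had the largest mean, with 3272 in KO EBs, 5922 in WT EBs, 5171 in KO ESCs and 7185 in WT ESCs. For Sf3b1 the order was WT ESCs, WT EBs, KO ESCs and KO EBs, from high to low. Per kb its mean was 1376, and the highest of the Sf3 genes was Sf3b5 at 3936. Sf3b5 was also the highest of them per window without a copy. U2af1l4, which encodes the U2AF26 relative of U2af1, was the only U2af gene with reads, with 245 in KO EBs, 313 in WT EBs, 238 in KO ESCs and 275 in WT ESCs.

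**Figure D1:**
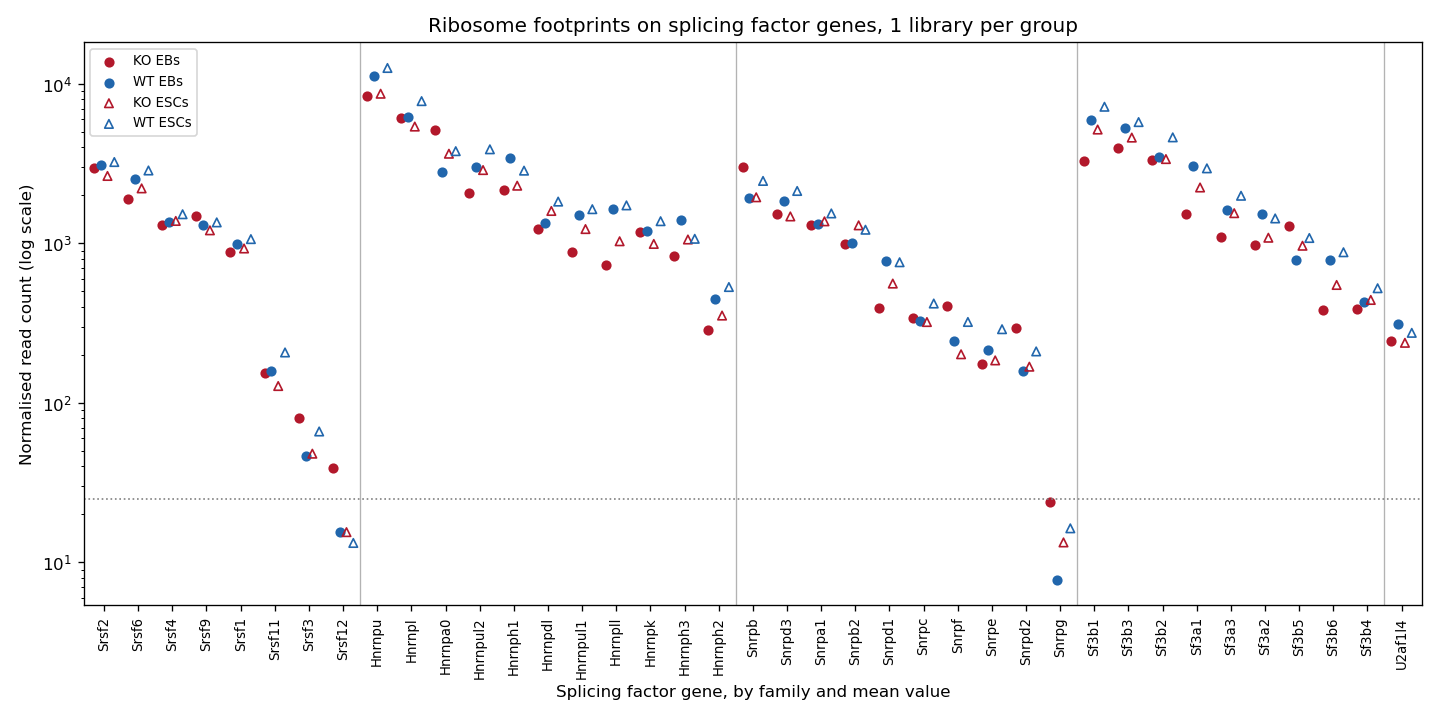
Normalised read count (log scale) of the 39 splicing factor genes with reads, grouped by family and ordered by mean, with 1 point per library (filled, EBs; open, ESCs; red, KO; blue, WT). Sf3b1, Hnrnpu and Hnrnpll have their KO points below the WT points of the same stage, and the 2 genes with a mean under 25 (dotted line), Srsf12 and Snrpg, were not compared.

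In ESCs the knockout library had fewer footprints on nearly every splicing factor. Differences are given as the log2 ratio of (value + 1), and folds as the ratio of the values. Of the 37 genes that passed, 36 were below 0 in KO ESCs against WT ESCs, where 50.3% of all 9670 genes tested were. The differences were small. The median was -0.38, against -0.0044 over all genes, and the range ran between -0.75 and 0.09. Read intervals lay wholly below a ratio of 1 for 35 genes and included 1 for Hnrnph3 and Snrpb2. No splicing factor was at least 1.5-fold higher, against 20.5% of all genes, and 6 were at least 1.5-fold lower, against 13.4%. The count of 6 is 16.2% of the 37 and so near the background share. At 2-fold, 0 splicing factors were higher, against 10.6%, and 0 were lower, against 4.42%. The ESC marker sum was also lower in KO ESCs, at 15686 against 24360 in WT ESCs, and the collagen sum was higher, at 1721 in KO ESCs against 311 in WT ESCs.

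Scaling matters for this comparison. With each library set to the same total of gene reads, the median of all genes moved up by 0.13 on the log2 scale, and the share of higher genes among those at least 1.5-fold apart was 73.7%, against 60.5% with the deposited scaling. The median of the splicing factors was then -0.26, against 0.12 over all genes. A change of scaling shifts every gene by the same amount, so the distance between these medians cannot show how far the result depends on it. On the same total, 34 of 37 stayed below 0, with Hnrnpa0 and Hnrnph3 turning above it. The share of all genes below 0 on this scaling is not given. Only 1 of the 37, Hnrnpll, stayed at least 1.5-fold lower, against 861 of all 9670 genes.

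The families moved alike in ESCs. The median of KO ESCs against WT ESCs was -0.29 for the 7 Srsf genes, -0.43 for the 11 Hnrnp genes, -0.38 for the 9 Snrp genes and -0.40 for the 9 Sf3 genes, and each stayed below 0 on the same total. Summed values gave the same order of size, with ratios of KO ESCs over WT ESCs of 0.829 for Srsf, 0.746 for Hnrnp, 0.805 for Snrp and 0.756 for Sf3.

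The lowest genes in KO ESCs came from all 4 of these families. Hnrnpll (chr17:80029487-80062268, GRCm38.p6), known for excluding exons of the leukocyte antigen CD45 in T cells, had 1031 in KO ESCs against 1730.2 in WT ESCs, 1.68-fold lower (1.58 to 1.79). Srsf11, an SR-like protein, had 127 in KO ESCs against 207 in WT ESCs, 1.62-fold lower (1.36 to 1.94). Its count rests on 105 own coding bases and on 239 reads in KO ESCs against 266 in WT ESCs. Sf3b6, the small SF3b subunit that contacts the branch point adenosine, had 548 in KO ESCs against 879.5 in WT ESCs, 1.60-fold lower (1.47 to 1.75). Snrpf, which encodes SmF, had 202 in KO ESCs against 321 in WT ESCs, 1.59-fold lower (1.38 to 1.84). The other genes past 1.5-fold were Snrpe, the SmE gene, with 185 in KO ESCs against 289.5 in WT ESCs, and Hnrnph2, with 353 in KO ESCs against 532 in WT ESCs. At the other end, Snrpb2, the U2B″ gene, was the only gene above 0, with 1297 in KO ESCs against 1217 in WT ESCs, a ratio whose interval includes 1. Hnrnph3 (1057 in KO ESCs against 1068 in WT ESCs), Hnrnpa0 (3647 in KO ESCs against 3784 in WT ESCs) and Srsf4 (1382 in KO ESCs against 1522 in WT ESCs) differed least below 0.

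In EBs the families parted. KO EBs were lower than WT EBs for most Hnrnp and Sf3 genes, while several Sm protein genes, Srsf3, Hnrnpa0 and Sf3b5 were higher. Past 1.5-fold stood 10 of the 37 genes on the lower side, where 25.1% of all genes stood, and 6 on the higher side, where 24.6% did. At 2-fold, Hnrnpll and Sf3b6 were lower, against 12.2% of all genes, and no splicing factor was higher, against 15.2%. As shares of the 37, 27.0% and 16.2% at 1.5-fold are near and below the background. In all, 29 of 37 were below 0, against 53.5% of all genes, and the median was -0.16, against -0.07 over all genes. Read intervals lay below 1 for 17 genes, above 1 for 7 and across 1 for 13.

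By family, the median of KO EBs against WT EBs was -0.54 for Hnrnp and -0.58 for Sf3. It was -0.07 for Srsf and -0.02 for Snrp with the deposited scaling, and 0.05 and 0.10 on the same total of gene reads, so the sign of those families rests on the scaling. Hnrnp and Sf3 stayed below 0 on the same total, at -0.42 and -0.46. The same total moved the median of all genes up by 0.12 in this comparison and turned 8 splicing factors above 0. In KO EBs, 5 of 11 Hnrnp genes and 4 of 9 Sf3 genes were at least 1.5-fold lower, against 1 of 9 Snrp and 0 of 7 Srsf genes. Of all genes 25.1% were. On the same total the counts were 3 of 11 Hnrnp and 3 of 9 Sf3 genes, against 1992 of all 9670 genes. The families are too small to set these counts apart from those of all genes. The summed Sf3 value was 16215 in KO EBs against 22878 in WT EBs, a ratio of 0.709, where the Snrp sum gave 1.08.

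**Figure D2:**
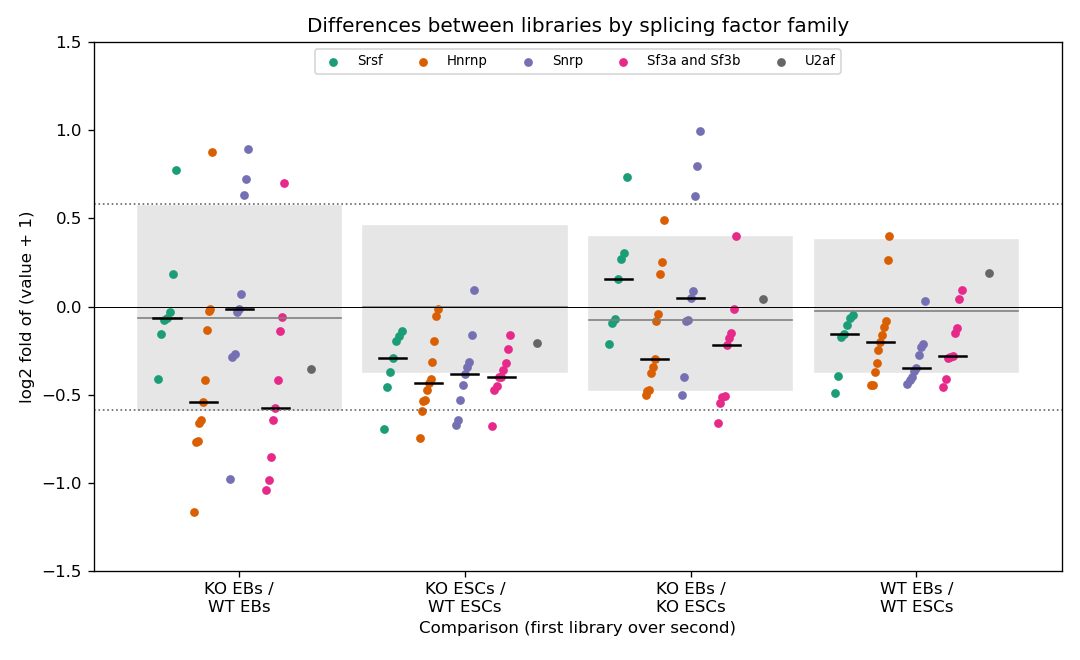
Log2 fold of (value + 1) for the 37 splicing factors in 4 comparisons of 2 libraries, by family, with black bars at family medians, grey boxes at the quartiles of all 9670 genes, a grey line at their median and dotted lines at 1.5-fold. The points of KO ESCs over WT ESCs lie between -0.75 and 0.09, and those of KO EBs over WT EBs between -1.17 and 0.90; on the same total of gene reads the Srsf and Snrp medians of KO EBs over WT EBs are above 0.

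Of the 9 Sf3 genes, 8 were below 0 in KO EBs against WT EBs, where 53.5% of all genes were. Sf3b6 (chr12:4817608-4827659) had 384 in KO EBs against 792 in WT EBs, 2.06-fold lower (1.77 to 2.41). Sf3a1, the SF3a subunit with ubiquitin-like and SURP domains, had 1533 in KO EBs against 3036 in WT EBs, 1.98-fold lower (1.84 to 2.14). Sf3b1 (chr1:54985169-55027501) had 3272 in KO EBs against 5922 in WT EBs, 1.81-fold lower (1.72 to 1.91). These 3 genes have under 10% of their windows copied, and Sf3b1 had 2192 reads in KO EBs against 3800 in WT EBs. Sf3a2 had 978 in KO EBs against 1530.5 in WT EBs, 1.57-fold lower (1.42 to 1.73), and Sf3a3 had 1088 in KO EBs against 1624 in WT EBs, just inside 1.5-fold. Sf3b3 had 3953 in KO EBs against 5282 in WT EBs, Sf3b4 had 389.6 in KO EBs against 429 in WT EBs and Sf3b2 had 3341 in KO EBs against 3477 in WT EBs. The 3 SF3a subunits were thus between 1.49-fold and 1.98-fold lower, and the SF3b subunits were spread. Sf3b5, the smallest SF3b subunit, went the other way, with 1278 in KO EBs against 786 in WT EBs, 1.63-fold higher (1.46 to 1.82), and has no copied window.

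Among the hnRNPs, the 3 Hnrnph genes, whose proteins bind runs of G, were each at least 1.5-fold lower in KO EBs. Of all genes 25.1% were. Hnrnpf had 0 reads and is not among them. Hnrnph1 had 2167 in KO EBs against 3427 in WT EBs, 1.58-fold lower (1.48 to 1.69), Hnrnph2 had 287 in KO EBs against 449 in WT EBs, 1.57-fold lower (1.30 to 1.89), and Hnrnph3 had 831 in KO EBs against 1410.5 in WT EBs, 1.70-fold lower (1.52 to 1.89). These genes are related in sequence, and 74.2% of the windows of Hnrnph2 have a copy elsewhere, against 2.17% for Hnrnph3. Hnrnpll gave the lowest ratio of all 37 genes, with 727 in KO EBs against 1636 in WT EBs, 2.25-fold lower (2.02 to 2.51). Hnrnpul1 had 885 in KO EBs against 1512 in WT EBs, 1.71-fold lower (1.54 to 1.89), and its relative Hnrnpul2 had 2063 in KO EBs against 3000.2 in WT EBs. Hnrnpu, the third gene of that group, had 8414 in KO EBs against 11249 in WT EBs, 1.34-fold lower (1.29 to 1.38). The 3 differ in size but not in direction. Hnrnpl, which binds CA repeats and is the close relative of Hnrnpll, had 6129 in KO EBs against 6240.4 in WT EBs, a ratio whose interval includes 1. Hnrnpk, which binds C-rich RNA, had 1184 in KO EBs against 1195 in WT EBs, and Hnrnpdl had 1227 in KO EBs against 1343 in WT EBs, both with intervals that include 1. Hnrnpa0 (chr13:58125879-58128556), an A/B type hnRNP with 0.225% of its windows copied, stood apart. It had 5119.9 in KO EBs against 2784 in WT EBs, 1.84-fold higher (1.74 to 1.95).

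The Sm proteins form a ring of 7 on the U1, U2, U4 and U5 RNAs, so their genes serve the same particle, but their footprints did not move as a set in EBs. Snrpd2, the SmD2 gene, had 294 in KO EBs against 157 in WT EBs, 1.87-fold higher (1.46 to 2.40). Snrpf had 403 in KO EBs against 243 in WT EBs, 1.66-fold higher (1.36 to 2.03), and Snrpb had 3002 in KO EBs against 1936 in WT EBs, 1.55-fold higher (1.44 to 1.67). Snrpd1, the SmD1 gene, was the exception below, with 394 in KO EBs against 779 in WT EBs, 1.98-fold lower (1.70 to 2.30). Snrpd3 had 1523 in KO EBs against 1839 in WT EBs and Snrpe had 175 in KO EBs against 214 in WT EBs. Of the 6 Sm genes compared, 3 were thus at least 1.5-fold higher in KO EBs, 1 was at least 1.5-fold lower and 2 were within 1.5-fold. Of all genes, 24.6% were higher and 25.1% lower by that much. The copied share was 91.2% for Snrpd2, 83.8% for Snrpf, 15.4% for Snrpb and 61.0% for Snrpd1. The snRNP-specific proteins differed little between EBs. Snrpc of U1 had 342 in KO EBs against 326 in WT EBs, Snrpa1 of U2 had 1300.1 in KO EBs against 1315 in WT EBs and Snrpb2 of U2 had 984 in KO EBs against 1007 in WT EBs, each with an interval that includes 1. Snrpg, the SmG gene, had all its windows copied and stayed under the filter, with 16 reads in KO EBs, 5 in WT EBs, 25 in KO ESCs and 21 in WT ESCs.

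In KO EBs, 0 of the 7 SR genes compared lay past 1.5-fold on the lower side, where 25.1% of all genes did. On the higher side lay 1, Srsf3, where 24.6% of all genes did. Srsf2 had 2948 in KO EBs against 3087 in WT EBs, Srsf4 had 1297 in KO EBs against 1365 in WT EBs and Srsf1 had 885 in KO EBs against 987 in WT EBs, all with intervals that include 1. Srsf11 was also level, with 154 in KO EBs against 157 in WT EBs. Srsf6 had 1909 in KO EBs against 2539 in WT EBs, 1.33-fold lower (1.24 to 1.43). Srsf9 was higher, with 1488 in KO EBs against 1308 in WT EBs, 1.14-fold higher (1.04 to 1.25). Srsf3, the smallest SR protein, had 80.6 in KO EBs against 46.8 in WT EBs, 1.72-fold higher (1.08 to 2.79), from 54 reads in KO EBs against 30 in WT EBs. Its interval is the widest of the 37 genes for this comparison. Srsf12, which is known as a low-abundance SR protein, stayed under the filter, with 26 reads in KO EBs, 10 in WT EBs, 29 in KO ESCs and 17 in WT ESCs. U2af1l4 had 245 in KO EBs against 313 in WT EBs, 1.28-fold lower (1.04 to 1.58).

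Copied sequence was unevenly spread over these genes. Among the 22 genes with under 10% of their windows copied, 6 stood past 1.5-fold on the lower side in KO EBs, a share near the 25.1% of all genes. Another 2, Hnrnpa0 and Sf3b5, stood past it on the higher side, where 24.6% of all genes did, and the median was -0.31. The 3 higher Sm genes and Srsf3 are all outside that set. Whether reads on copied sequence take part in their difference was not tested.

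Set side by side, 28 of 37 genes, or 75.7%, were below 0 in both KO EBs and KO ESCs, where 34.4% of all genes were. With 78.4% of the splicing factors below 0 in KO EBs and 97.3% in KO ESCs, this count says no more than the counts of each stage. Below 0 in KO ESCs and above 0 in KO EBs were 8 genes, or 21.6%, against 15.9% of all genes. These 8 were Hnrnpa0, Sf3b5, Snrpb, Snrpc, Snrpd2, Snrpf, Srsf3 and Srsf9. At least 1.5-fold lower at both stages were Hnrnph2, Hnrnpll and Sf3b6, or 8.11%, against 6.11% of all genes. The sizes of the differences at the 2 stages were weakly related. Across the 37 genes Pearson's r was 0.29 and Spearman's rho 0.30, as a description over genes that share the same 4 libraries, and across all genes both were 0.39.

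**Figure D3:**
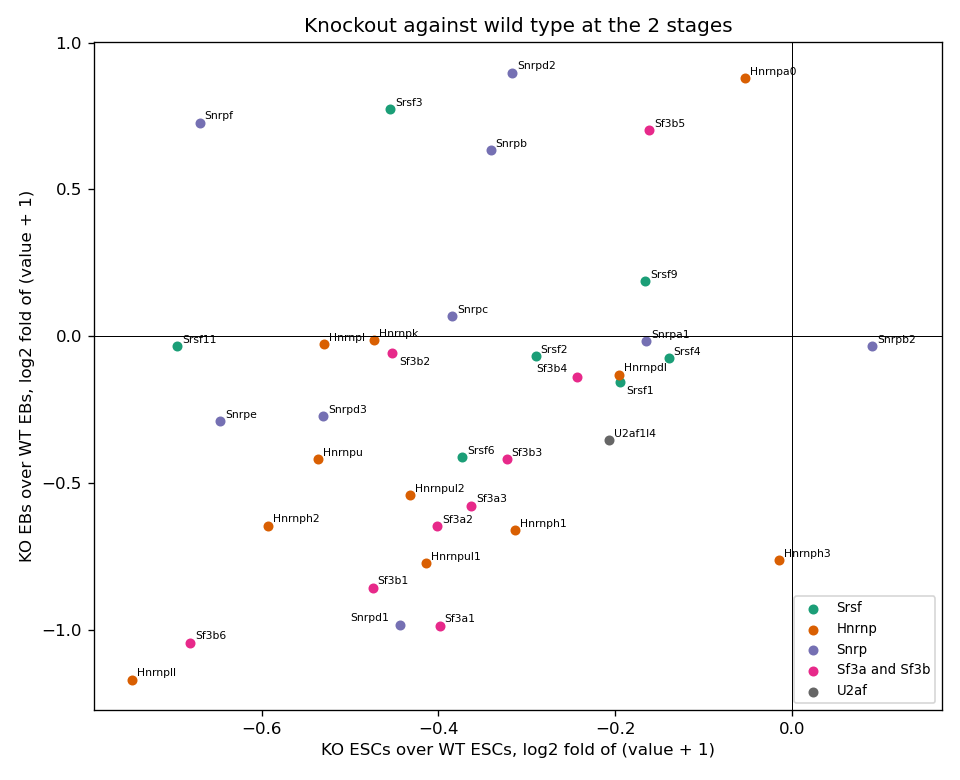
Log2 fold of KO ESCs over WT ESCs (x axis) and of KO EBs over WT EBs (y axis) for the 37 splicing factors, 1 point per gene, coloured by family. Hnrnpll and Sf3b6 lie lowest on both axes together, while Snrpf, Srsf3, Snrpd2 and Snrpb lie left of 0 in ESCs and above 0.5 in EBs.

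Within each genotype, the change with differentiation was small. In WT EBs against WT ESCs, 0 of 37 splicing factors were at least 1.5-fold higher and 0 lower, where 18.2% and 15.6% of all genes were. The median was -0.23, against -0.02 over all genes, 31 genes were below 0, against 51.8%, none passed 2-fold, which 11.0% of all genes did upward and 8.25% downward, and the values ran between -0.49 and 0.40. The highest were Hnrnph3, with 1410.5 in WT EBs against 1068 in WT ESCs, 1.32-fold higher (1.21 to 1.44), and Hnrnph1, with 3427 in WT EBs against 2856 in WT ESCs, 1.20-fold higher (1.14 to 1.27). U2af1l4 (313 in WT EBs against 275 in WT ESCs) and Sf3a2 (1530.5 in WT EBs against 1433 in WT ESCs) followed, with intervals that include 1. At the low end Sf3b5 had 786 in WT EBs against 1080.3 in WT ESCs, 1.38-fold lower (1.24 to 1.53), Hnrnpdl had 1343 in WT EBs against 1828 in WT ESCs, 1.36-fold lower (1.26 to 1.47), and Hnrnpa0 had 2784 in WT EBs against 3784 in WT ESCs, 1.36-fold lower (1.29 to 1.44). Snrpe had 214 in WT EBs against 289.5 in WT ESCs, 1.36-fold lower (1.11 to 1.66). Sf3b5 and Hnrnpa0, the genes with under 10% of their windows copied that were at least 1.5-fold higher in KO EBs than in WT EBs, were thus among the lower ones of WT EBs against WT ESCs; both comparisons share the WT EB library.

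In KO EBs against KO ESCs, 4 genes were at least 1.5-fold higher, against 18.5% of all genes, and 1 was at least 1.5-fold lower, against 19.0%. At 2-fold, 0 were higher, against 9.31%, and 0 lower, against 6.65%. The median was -0.08, the same as over all genes to 2 decimals, and 23 of 37 were below 0, against 55.0%. Snrpf had 403 in KO EBs against 202 in KO ESCs, 2.00-fold higher (1.70 to 2.34) and just short of 2-fold before rounding. Snrpd2 had 294 in KO EBs against 169 in KO ESCs, 1.74-fold higher (1.45 to 2.09), Srsf3 had 80.6 in KO EBs against 48.0 in KO ESCs, 1.68-fold higher (1.18 to 2.38), and Snrpb had 3002 in KO EBs against 1944 in KO ESCs, 1.54-fold higher (1.46 to 1.63). Hnrnpa0 came next, with 5119.9 in KO EBs against 3647 in KO ESCs, 1.40-fold higher (1.35 to 1.46). The gene past 1.5-fold below was Sf3b1, with 3272 in KO EBs against 5171 in KO ESCs, 1.58-fold lower (1.51 to 1.66). Sf3a1 had 1533 in KO EBs against 2239.9 in KO ESCs, Sf3b6 had 384 in KO EBs against 548 in KO ESCs and Sf3a3 had 1088 in KO EBs against 1546 in KO ESCs, each 1.42-fold to 1.46-fold lower. The comparisons KO EBs against WT EBs and KO EBs against KO ESCs share the KO EB library, so their values are not separate evidence.

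The change in KO minus the change in WT, on the log2 scale, had a median of 0.07 over the 37 genes, against -0.08 over all genes. At 1.5-fold, 7 genes were higher, against 21.0% of all genes, and 2 were lower, Hnrnph3 at -0.75 and Sf3a1 at -0.59, against 25.4%. The 7 were Snrpf at 1.40, Srsf3 at 1.23, Snrpd2 at 1.21, Snrpb at 0.97, Hnrnpa0 at 0.93, Sf3b5 at 0.86 and Srsf11 at 0.66. The first 3 passed 2-fold, against 11.4% of all genes, and 0 passed it downward, against 12.5%. With 1 library per group this difference of differences could not be tested. Within 1.5-fold in all 4 comparisons of 2 libraries were 19 splicing factors, or 51.4%, against 27.8% of all genes. They included Srsf1, Srsf2, Srsf4, Srsf6 and Srsf9, Hnrnpu, Hnrnpl and Hnrnpk, Sf3b2 and Sf3b3, and Snrpa1, Snrpb2, Snrpc and Snrpd3.

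The genes that were higher and lower in KO EBs differed in coding length, which the choice of genes did not use. The 6 higher genes had a median coding length of 426 nt, between 261 and 918 nt, the 10 lower ones a median of 1404 nt, and the 21 within 1.5-fold a median of 1263 nt. The short Snrpd1 and Sf3b6, of 360 and 378 nt, were among the lower ones. Across the 37 genes, coding length and the log2 fold of KO EBs against WT EBs had a Pearson's r of -0.44 and a Spearman's rho of -0.44. Across 9597 genes with a matched coding sequence rho was -0.14. Over all genes, coding sequences of up to 400 nt had a median of 0.21 and those over 2500 nt one of -0.27. The splicing factors lay below the median of all genes of their length in 5 of 6 length classes, the exception being 400 to 700 nt. The GC content of the coding sequence also moved with this comparison, with a rho of 0.39 across the 37 genes and of 0.51 across all genes. For KO ESCs against WT ESCs, rho with GC content was 0.38 across the 37 genes and 0.30 across all genes, and with coding length -0.16 and 0.05. The median GC content was 57.3% in the 6 higher genes and 47.7% in the 10 lower ones. These figures describe genes that share the same 2 libraries. Whether length or base composition has a part in the differences was not tested.

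**Figure D4:**
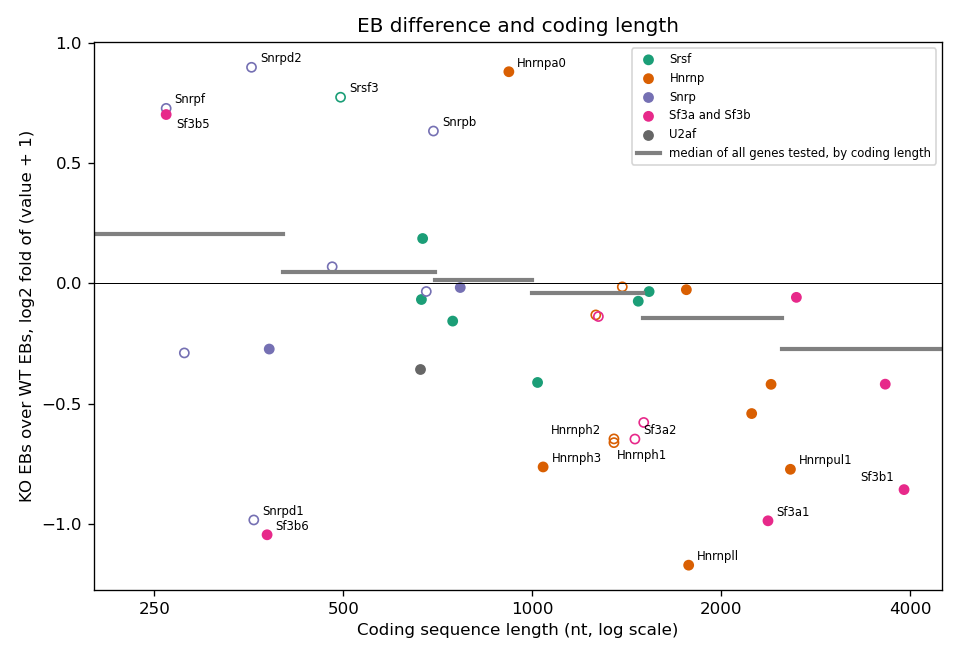
Coding length (nt, log scale) against the log2 fold of KO EBs over WT EBs for the 37 splicing factors, filled where under 10% of 28-nt windows have a copy elsewhere and open otherwise, with grey bars at the median of all genes tested in each length class. The 6 genes at least 1.5-fold higher are all under 1000 nt, and Snrpd1 and Sf3b6, also short, are at least 1.5-fold lower.

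The letters GGACT, the most common core of an m6A site, were counted on the coding strand only, with no match overlapping another. They occur in the coding sequence of 23 of the 37 splicing factors, or 62.2%, against 77.2% of all genes tested, whose coding sequences are longer, with a median of 1383 nt against 1041 nt. Per kb the median was 0.792 for the splicing factors and 1.08 for all genes. Per-kb counts and the log2 fold of KO EBs against WT EBs had a Pearson's r of 0.22 and a rho of 0.01 across the 37 genes, and a rho of 0.07 across all genes. For KO ESCs against WT ESCs they had an r of 0.31 and a rho of 0.38 across the 37 genes, and a rho of 0.09 across all genes. These are descriptions over genes that share their libraries. A match is only a string of letters and no measured site, and most m6A sites lie in 3′ UTRs and last exons, which were not searched.

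Other splicing genes were read from 4 lists. Of all genes tested, 25.1% lay past 1.5-fold on the lower side and 24.6% on the higher side in KO EBs, and 13.4% lower and 20.5% higher in KO ESCs, against which the counts below are read. Of 37 further snRNP proteins of U1, U4/U6, U5 and the minor spliceosome, 28 passed, with a median of -0.18 in KO EBs against WT EBs and of -0.16 in KO ESCs against WT ESCs. At 1.5-fold, 7 of these 28 were lower and 1 higher in KO EBs, and 3 lower and 1 higher in KO ESCs. Of 40 genes of the Prp19 complex, branch site factors and helicases, 31 passed, with medians of -0.49 in EBs and -0.40 in ESCs. At 1.5-fold, 12 of them were lower and 0 higher in KO EBs, and 6 lower and 0 higher in KO ESCs. Of 40 splicing regulators and kinases, 29 passed, with medians of -0.47 in EBs and -0.19 in ESCs, 8 lower and 2 higher in KO EBs, and 6 lower and 2 higher in KO ESCs. The list of the Prp19 complex, branch site factors and helicases thus had medians near those of the Sf3 genes, -0.58 in EBs and -0.40 in ESCs. The Hnrnp medians, -0.54 and -0.43, also lay near them, so this likeness is not particular to factors of the branch site. The list for the assembly of Sm rings, the SMN complex together with Prmt5, Wdr77, Clns1a and Coil, had medians on the other side of 0. Of its 13 genes 12 passed, with medians of 0.19 in EBs and 0.13 in ESCs, 5 higher and 2 lower in KO EBs, and 5 higher and 1 lower in KO ESCs. The genes split nearly evenly around 0, with 7 above and 5 below in EBs and 6 above and 6 below in ESCs.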

How the data were processed

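Ribosome footprint libraries were made from lysates treated with RNase I, per the labels' protocols, with 1 library for each of 4 groups, taken from the sample titles. The deposited signal per RefSeq coding sequence was made by the authors from read counts divided by 1 factor per library. The build was mm10 and the tools were HTSeq 0.6.0, TopHat2 2.0.10, DESeq, Bowtie and CASAVA 1.8.2, per the submitters' processing notes; settings are not given in these sources. Values were whole multiples of what 1 read is worth (100% of them in every library, tolerance 0.01), so reads were recovered. The 5 summary entries held the reads outside genes, between 66.6% and 72.1% of a library, and stayed out. The table columns matched the libraries by name.

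Of 27442 entries, 27083 matched a symbol in the RefSeq table of GRCm38.p6, and the other 359 were kept as genes of their own. Entries were summed per gene. Genes with a mean of at least 25 were compared by the log2 ratio of (value + 1), which understates changes of low genes, and called at 1.5-fold or 2-fold. Folds in the text are ratios of the values themselves. Intervals are Clopper-Pearson at 95%, and PCR copies are not independent molecules. Copied sequence was measured in windows of 28 nt. The gene families, the other lists and the alternatives were chosen with earlier results of these data known. The genes printed with values in every library followed a rule: the 4 highest and 4 lowest of a comparison among members that reach 100 in either library, and the largest mean and largest range of each family; other members were added to describe their family. edgeR 4.0.16 and DESeq2 1.42.0 (R 4.3.3) were run on the recovered reads as an alternative chosen after seeing the data. The steps were tested on simulated data. Python 3.11.15, numpy 2.4.6, pandas 2.3.3, scipy 1.17.1 and matplotlib 3.10.9 were used.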

Additional observations from a re-analysis of the deposited data

Results flagged for a closer look

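For 3 genes the change from ESCs to EBs ran, by its point value, in opposite directions in the genotypes and differed by over 2-fold, which flagged them. The KO change exceeded the WT change by at least 2-fold in 11.4% of all genes, counted whatever the directions. With 1 library per group the difference was not tested. Snrpf was higher with differentiation in KO cells, with 403 in KO EBs against 202 in KO ESCs, and lower with it in WT cells, with 243 in WT EBs against 321 in WT ESCs. The KO change exceeded the WT change by 1.40 on the log2 scale. For Srsf3 the values were 80.6 in KO EBs against 48.0 in KO ESCs and 46.8 in WT EBs against 66.2 in WT ESCs, a difference of 1.23. For Snrpd2 they were 294 in KO EBs against 169 in KO ESCs and 157 in WT EBs against 210.2 in WT ESCs, a difference of 1.21. For Srsf3 the interval of the ratio of WT EBs over WT ESCs, 0.45 to 1.08, includes 1, so its direction in WT cells is not settled. The reads behind these values were 270 reads in KO EBs, 156 in WT EBs, 378 in KO ESCs and 413 in WT ESCs for Snrpf, 54 reads in KO EBs, 30 in WT EBs, 90 in KO ESCs and 85 in WT ESCs for Srsf3 and 197 reads in KO EBs, 101 in WT EBs, 316 in KO ESCs and 270 in WT ESCs for Snrpd2. Of the 28-nt coding windows, 83.8% had a copy elsewhere in the genome for Snrpf, 94.9% for Srsf3 and 91.2% for Snrpd2. A part of copied sequence in the difference was not tested.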

How the results depend on the processing

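Of 115 values computed under other settings, 98 were classed as kept, 17 as moved and none as reversed. Most were counts of genes past a fold, which cannot change sign, so the lack of reversals says little for them. Values classed as kept could still differ in size. The count on the lower side of KO EBs against WT EBs was 7 on the same total, against 10. Over all 9670 genes it was 1992 on the same total, against 2424. Family medians were not among the 115. Those of Srsf and Snrp in KO EBs against WT EBs changed sign on the same total. All values were classed as kept with a pseudocount of 5 or 0.1, a mean of at least 100 or genes with 1 entry. A pseudocount this small beside most of the values could hardly move them. The median of KO EBs against WT EBs was still -0.21 with a mean of at least 100 and -0.20 with 1 entry, against -0.16. On the same total of gene reads the median of KO ESCs against WT ESCs was -0.26. There, 1 of 37 genes was at least 1.5-fold lower, against 861 of all 9670 genes. The median of KO EBs against WT EBs was -0.039 on the same total. The set under 10% copied has 22 genes in place of 37, so its counts can fall with the number of genes alone. In it, 3 of 22 were lower in KO ESCs, against 6 of 37. The median of KO EBs against WT EBs was -0.31. There, 2 of 22 were higher and 6 of 22 lower, against 6 and 10 of 37. In KO EBs against KO ESCs 0 of 22 were higher, against 4 of 37. The KO change exceeded the WT change in 3 of 22, against 7 of 37. Of all genes, 13.4% were lower in KO ESCs, and 24.6% higher and 25.1% lower in KO EBs against WT EBs. At 2-fold, 0 were lower in KO ESCs, 0 were higher and 2 lower in KO EBs against WT EBs, 0 were higher and 0 lower in KO EBs against KO ESCs, and the KO change exceeded the WT change in 3 and fell short of it in 0. Without the filter, 1 gene, Snrpg, was at least 1.5-fold lower in WT EBs against WT ESCs. Apart from the construction of each alternative, the cause was not tested. A count test on the recovered reads, with genotype and stage as terms and 1 residual degree of freedom, was added after seeing the data. For KO against WT, DESeq2 called 251 genes higher and 71 lower, while edgeR called 0 of 9670, of which 1556 had an unadjusted p under 0.05. Either tool called 0 of the 37 splicing factors. An unadjusted p under 0.05 was found for 4 of the 37 by edgeR. By DESeq2 it was found for 3 of the 37, against 1337 of all 9670 genes. For EBs against ESCs edgeR called 20 higher and 5 lower, DESeq2 274 and 101, and neither called a splicing factor. With either tool 0 of the 37 had an unadjusted p under 0.05. Of all 9670 genes, 1140 by edgeR and 1036 by DESeq2 had one. No paired analysis was possible because each group has 1 library and the labels give no replicate numbers. With 1 library per group, no library could be left out.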

Other observations

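Splicing genes outside the 5 families held larger differences than any member of them. Esrp1, an epithelial splicing regulator, had 287 normalised reads in KO EBs against 1197 in WT EBs, 4.18-fold lower (3.56 to 4.92). It was 24.0-fold higher in WT EBs than in WT ESCs, where it had 49.8, and 24.4-fold higher in KO EBs than the 11.7 of KO ESCs. The visceral endoderm markers moved the same way between the EB libraries, at 1203 in KO EBs against 41402 in WT EBs, and their part was not tested. Srek1, which encodes an SR-related protein, had 204 in KO EBs against 639 in WT EBs, 3.12-fold lower (2.57 to 3.82). Plrg1 of the Prp19 complex had 809 in KO EBs against 1993 in WT EBs, 2.46-fold lower (2.23 to 2.73), and 1021 in KO ESCs against 2030 in WT ESCs, 1.99-fold lower (1.87 to 2.11).

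In the SMN complex, which loads Sm rings on snRNAs, the subunits went different ways. Gemin4 had 3088 in KO ESCs against 1024 in WT ESCs, 3.02-fold higher (2.84 to 3.21), and 2251 in KO EBs against 1301 in WT EBs, 1.73-fold higher (1.59 to 1.88). Gemin7 was 2.18-fold higher in KO ESCs than in WT ESCs and 2.28-fold higher in KO EBs than in WT EBs. Smn1 had 460 in KO EBs against 853 in WT EBs, 1.85-fold lower (1.61 to 2.14), and Gemin2 had 402 in KO ESCs against 682 in WT ESCs, 1.70-fold lower. Zrsr2, which recognises the 3′ splice site of minor introns, had 144 in KO ESCs against 408 in WT ESCs, 2.83-fold lower (2.44 to 3.29).

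Annotated small RNA genes lie on the same strand inside the counted spans of 4 splicing factors, Mir7-1 in Hnrnpk, Mir697 in Sf3a3, Snord111 in Sf3b3 and a snoRNA model in Sf3b4. How many reads they add was not tested.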
